A study of Mus musculus with 4 samples.

Results

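The cells described here are epithelial cells of mouse lung tumours that carried Unc13c RNA. A cell barcode was kept at 2000 or more UMIs (unique molecular identifiers, 1 per captured RNA molecule) and at most 20% mitochondrial UMIs. It counted as epithelial with at least 2 UMIs summed over Epcam, Cdh1, Krt8, Krt18 and Cldn18 and with none of Ptprc, Cdh5 or Col1a2, the markers of blood, endothelial and stromal cells. An epithelial cell was a member with at least 3 Unc13c UMIs, under 10 UMIs of Rbp4, Agr2 and Phgr1 and under 5 of Lyz1 and Retnla per 10000 UMIs. This gave 1883 members among 15189 epithelial cells and 29367 barcodes in all. The members were compared with the 9673 epithelial cells that passed the same limits on Rbp4, Agr2, Phgr1, Lyz1 and Retnla and held no Unc13c UMI, called Unc13c-zero cells. Another 1060 cells within the limits held 1 or 2 Unc13c UMIs and entered neither class.

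The genotype label was the same for all mice, and the alleles it names include p53frt, Rosa-FSF-CreERT2 and Hnf4aflox. Tumours were started with adenovirus carrying mSPC-FlpO, a Flp recombinase driven by a surfactant protein C promoter, and tamoxifen or vehicle followed 10 weeks later, with collection after another 2 weeks. Each treatment gave 1 library from the dissociated tumours and 1 from the same suspension after bead removal of CD45 and CD31 cells. The sample titles give the vehicle and tamoxifen groups different short names although their genotype label is the same, and the labels name the vehicle both as ethanol and as corn oil. The labels give no number of animals or tumours for a suspension. The 4 libraries are therefore 2 suspensions sequenced as 2 portions each, with 1 library per group, and no p-value is given. Values are listed with the vehicle libraries first and, within each treatment, the portion before depletion ahead of the portion after it.

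UNC13C, also known as Munc13-3, belongs to the family of Munc13 proteins that ready synaptic vesicles for fusion, and its best-known site is the cerebellum. In the lung, alveolar type 2 cells make surfactant and can give rise to adenocarcinoma. As such tumours progress, cells are known to lose surfactant genes and to take up genes of injured or transitional alveolar epithelium, genes of the gut and stomach, and in advanced tumours the chromatin protein HMGA2. HNF4A, whose gene is floxed here, is a transcription factor of gut, stomach and liver epithelium.

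Members numbered 86, 851, 110 and 836. They made up 9.86% (95% Clopper-Pearson interval 7.96 to 12.0), 13.4% (12.6 to 14.2), 11.9% (9.91 to 14.2) and 11.9% (11.1 to 12.7) of epithelial cells. The intervals cover counting error only, and with 1 library per group the libraries cannot be ranked beyond it. After each epithelial cell was thinned to 10000 UMIs, which left out cells shallower than that, cells with at least 3 Unc13c UMIs within the limits made up 7.51% (5.71 to 9.67), 9.92% (9.12 to 10.8), 6.98% (5.28 to 9.01) and 8.14% (7.44 to 8.88). Of Ptprc or Cdh5 cells without an epithelial UMI, thinned in the same way, 0 of 685 (up to 0.438%) in the vehicle library taken before depletion and 0 of 432 (up to 0.694%) in the tamoxifen library before depletion held 3 Unc13c UMIs. Those cells had median depths of 14883 and 14627 UMIs, against 26597 and 29590 in the epithelial cells of the same libraries. Summed over Ptprc cells, Unc13c stood at 0.192 and 0.549 counts per 1000000 UMIs (CPM).

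The limits on Rbp4, Agr2, Phgr1, Lyz1 and Retnla did not act alike in both treatments. They kept out 38, 444, 4 and 53 epithelial cells with at least 3 Unc13c UMIs. Without them, cells with at least 3 Unc13c UMIs were 14.2%, 20.4%, 12.4% and 12.6% of epithelial cells. Unc13c was thus not restricted to the members, and the cells with Unc13c outside these limits are not described further.

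Members had from 3 to 153 Unc13c UMIs, with medians of 15.5, 9, 9 and 6 in the 4 libraries. At least 10 UMIs were seen in 64.0%, 46.3%, 49.1% and 34.8% of members, and exactly 3 in 2, 113, 14 and 159 cells. Summed over members, Unc13c reached 524, 517, 425 and 403 CPM, with the vehicle libraries above the tamoxifen libraries in both portions. These levels follow from the rule and are given without a test. Unc13c spans 490 kb on the minus strand of chromosome 9 (chr9:73479422-73968966, GRCm38), a length over which unspliced RNA can add to a count, and whether intronic reads were counted is not given in the sources used here.

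**Figure D1:**
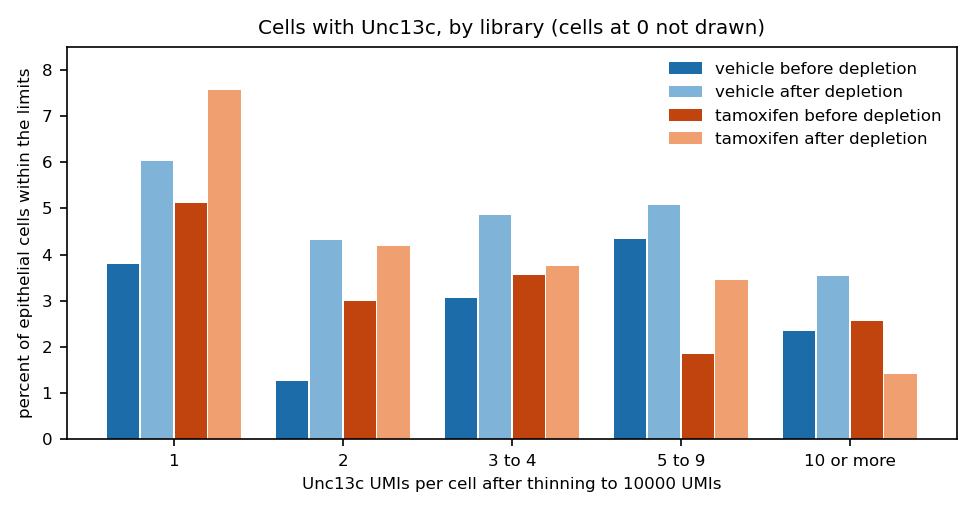
Share of epithelial cells within the limits (y axis, percent) by Unc13c UMIs per cell after thinning to 10000 UMIs (x axis), 1 bar per library. Cells with 10 or more UMIs made up 2.35%, 3.54%, 2.56% and 1.41% of these cells in the order of the legend.

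The members were deeper than the cells they were compared with. Among cells with at least 10000 UMIs, to which the comparison was limited, medians were 43028, 25982, 41717 and 23981 UMIs in members and 24422.5, 18769, 27543 and 18333 in Unc13c-zero cells. The limit left 1741 members and 7514 Unc13c-zero cells and set 142 members aside. Genes spanning 200 kb or more, without Unc13c, took a median of 6.22%, 5.43%, 5.25% and 5.34% of the UMIs of a member against 5.40%, 4.58%, 4.68% and 4.69% of those of an Unc13c-zero cell. Mitochondrial UMIs were at 3.62%, 2.76%, 3.28% and 3.06% in members and 4.51%, 2.85%, 3.999% and 3.72% in Unc13c-zero cells. A doublet score over 0.25 was found in 0, 17, 0 and 26 members. Pairs of libraries shared from 10 to 18 barcode sequences, none of them between members.

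Markers of other cell types were low in members but not absent. In members the summed levels of the 7 neutrophil, 10 T and NK, 6 B and 6 dendritic cell markers stayed between 3.8 and 15.4 CPM, against 166 to 5946 CPM in the Ptprc cells of the libraries before depletion. The 13 macrophage markers summed to 284, 475, 349 and 490 CPM in members and to 6739, 5731, 4079 and 3354 CPM in Unc13c-zero cells, most of it Lyz2, which alveolar type 2 cells also make. The macrophage marker Marco was at 0 in members of all 4 libraries. The 5 mesothelial markers summed to 28.6, 46.5, 55.1 and 44.6 CPM in members and 12.0, 21.1, 18.4 and 18.6 CPM in Unc13c-zero cells. Nearly all of it was Msln, mesothelin, the only one past the minimum used below, which was higher in members (log2 ratios of 1.16, 1.11, 1.54 and 1.22), while Wt1 was at 0 in members. With the weighting by alveolar type 2 RNA described below, the Msln ratios were -0.27 to -0.10. The 9 endothelial markers summed to 119, 143, 70.4 and 85.2 CPM in members and 112, 95.1, 94.8 and 89.5 CPM in Unc13c-zero cells. Of 4 past the minimum, Flt1 was higher in members, at 75.9, 91.1, 35.1 and 33.1 CPM, and Esam was lower, neither of them called with that weighting, and Kdr stayed at 0.27 CPM or lower. The 10 fibroblast and mural markers, with Lum at 0, summed to 152, 100.5, 195 and 144 CPM in members and 56.7, 116, 74.3 and 92.7 CPM in Unc13c-zero cells, led by Acta2. The part of such RNA in the results below was not tested.

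Under a rule of size, 193 of 8845 genes (2.18%) were higher by 2-fold or more in members than in Unc13c-zero cells in all 4 libraries and 101 (1.14%) were lower by as much, which makes 294 (3.32%) either way. A gene entered with at least 10 CPM in either class in every library, and 1 CPM was added before each ratio. The median log2 ratio of all these genes was 0.16, 0.14, 0.10 and 0.11, and individual ratios are read against that shift. With TMM scaling the split was 159 higher and 137 lower, and with median-of-ratios scaling 162 and 131. Long genes were called higher more often: 39 of 509 genes spanning 200 kb or more were higher (7.66%), against 39 of 1976 under 10 kb (1.97%). Because members were chosen by their own counts, what follows describes them and tests nothing. Where the classes are said not to overlap for a gene, that gene had already passed the 2-fold rule in every library. The share of all genes without overlap was not counted, so such statements add no support.

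Of the alternatives run, weighting the Unc13c-zero cells by alveolar type 2 RNA moved these counts most. The 16 alveolar type 2 genes listed took a median of 95.7, 145.2, 321 and 362 of 10000 UMIs in members and 1205, 1004, 938 and 955 in Unc13c-zero cells. Members spread widely around that median: in the vehicle library after depletion the 10th percentile was 16.0 and the 90th 843 such UMIs. When Unc13c-zero cells were weighted to match the members by quintile of this share, an alternative chosen after the data were seen, 31 genes were higher and 25 lower. Of these, 30 of the 193 and 21 of the 101 were shared with the unweighted comparison. The match was only partial: with the weighting the type 2 list's median log2 ratio over libraries was still -0.61, against -1.58 without it. The top quintile has no upper bound and held 1895 of 2705 Unc13c-zero cells in the vehicle library after depletion. Genes still called with this weighting were therefore not compared at equal type 2 RNA. The range over libraries in this weighted comparison is given below for the genes the description turns on. With weighting by depth alone 141 genes were higher and 65 lower, and with weighting by depth and long-gene share 148 and 70.

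Of the genes named for these cells beside Unc13c, F3 and S100a14 passed the size rule and Lmo7 did not. F3 encodes tissue factor, the membrane protein that starts the clotting cascade. It stood at 668, 549, 497 and 315 CPM in members and at 108, 184, 67.1 and 112 CPM in Unc13c-zero cells. Every member value was above every Unc13c-zero value, with log2 ratios of 2.62, 1.57, 2.87 and 1.49. S100A14 is a calcium-binding protein of epithelia. Its levels were 1011, 1233, 1101 and 821 CPM in members and 339, 601, 316 and 351 CPM in Unc13c-zero cells, again without overlap, and its ratios were 1.58, 1.04, 1.80 and 1.22. LMO7 links adherens junctions to actin. Lmo7 reached 1339, 1248, 730 and 618 CPM in members and 477, 525, 319 and 377 CPM in Unc13c-zero cells, with ratios of 1.49, 1.25, 1.19 and 0.71, the last below 2-fold. In the comparison weighted by alveolar type 2 share the ratios ran from 0.34 to 1.53 for F3, from 0.07 to 0.92 for S100a14 and from 0.14 to 0.60 for Lmo7. All 3 genes kept their direction in that comparison, and none of them was higher by 2-fold in all 4 libraries.

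First among the genes named by size was Hmga2, an architectural chromatin protein of embryonic tissues and advanced tumours. It measured 298, 238, 182 and 162 CPM in members. In Unc13c-zero cells it measured 11.3, 10.8, 1.49 and 10.5 CPM. The log2 ratios were 4.60, 4.34, 6.20 and 3.83, with no gene under the naming rule staying further from 0 in every library, and the weighted range was 2.27 to 5.51. After thinning, Hmga2 was seen in 41.4% (58 cells), 37.5% (514 cells), 16.1% (56 cells) and 23.9% (448 cells) of cells with at least 3 Unc13c UMIs. It was seen in 1.6%, 2.8%, 0.7% and 2.2% of Unc13c-zero cells, and in 0.637% and 0.777% of Ptprc cells of the libraries before depletion, whose median depths were 14728 and 14468.5 UMIs. Conversely, 57.1%, 46.7%, 42.9% and 37.5% of Hmga2-positive cells had at least 3 Unc13c UMIs, where 10.5%, 13.5%, 7.98% and 8.77% of all epithelial cells within the limits and with at least 10000 UMIs did.

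The upstream promoter letters of Unc13c, F3 and Hmga2 are shown because Unc13c and F3 are among the genes that name these cells and Hmga2 came first by size. They are the 250 bases before the start of each gene from RefSeq (GRCm38.p6), 5′ to 3′ on the gene's strand, at chr9:73969038-73969287 (minus), chr3:121723287-121723536 (plus) and chr10:120476470-120476719 (minus). Capitals mark matches to TGANTCA, the letters bound by AP-1, searched on both strands.
Unc13c: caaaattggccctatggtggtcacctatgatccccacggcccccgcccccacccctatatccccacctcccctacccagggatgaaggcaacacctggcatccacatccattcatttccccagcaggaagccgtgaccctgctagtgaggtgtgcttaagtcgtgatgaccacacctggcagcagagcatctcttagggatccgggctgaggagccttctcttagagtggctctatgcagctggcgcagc
F3: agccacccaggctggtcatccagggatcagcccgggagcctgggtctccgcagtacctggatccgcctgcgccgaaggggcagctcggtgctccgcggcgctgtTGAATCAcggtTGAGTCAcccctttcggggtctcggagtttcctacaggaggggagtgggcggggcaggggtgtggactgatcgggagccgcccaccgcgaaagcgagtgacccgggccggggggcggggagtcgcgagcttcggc
Hmga2: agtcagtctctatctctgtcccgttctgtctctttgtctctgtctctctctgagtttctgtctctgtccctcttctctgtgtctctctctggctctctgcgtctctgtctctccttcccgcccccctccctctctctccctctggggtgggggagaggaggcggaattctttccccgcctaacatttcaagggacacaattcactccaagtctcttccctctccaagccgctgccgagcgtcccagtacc
The F3 stretch held 2 matches, which begin 146 and 135 bases before the start, and the others held none. Among all 32851 promoters of this length, 6.75% held a match. Unc13c, the 3 marker genes and the 15 genes named higher make 19 genes, of which 14 had an entry, with 19 promoters. Of these promoters 2 (10.5%) held a match, those of F3 and Anxa10. GGAATG, the letters bound by TEAD proteins, were in 12.6% of all promoters and in none of these 19. The 15 genes named lower had 16 promoters for 13 genes, of which 0% held the AP-1 letters and 18.8% the TEAD letters. The matches describe letters only.

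**Figure D2:**
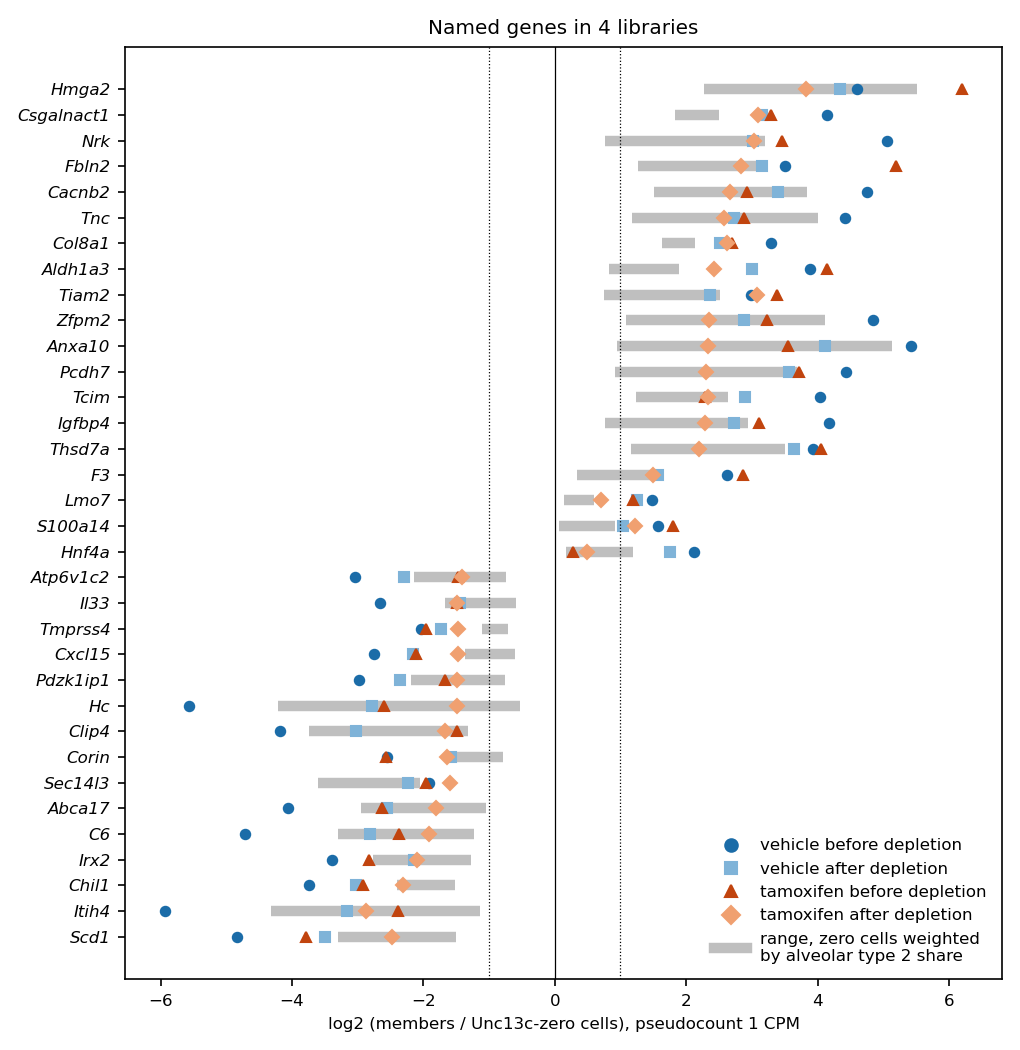
Log2 ratio of members over Unc13c-zero cells (x axis) for the named genes (y axis), 1 symbol per library, with dotted lines at 2-fold; grey bars span the 4 libraries when Unc13c-zero cells are weighted by alveolar type 2 share. Hmga2 lies between 3.83 and 6.20, and S100a14 and Lmo7 lie between 0.71 and 1.80.

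The other 14 genes named as higher included matrix, adhesion and signalling genes. Csgalnact1, an enzyme of chondroitin sulphate synthesis, stood at 70.5, 36.8, 35.7 and 42.8 CPM in members against 3.03, 3.24, 2.76 and 4.12 CPM, with ratios from 3.10 to 4.15. The matrix genes Tnc (tenascin C), Fbln2 (fibulin 2) and Col8a1 (a collagen VIII chain) had ratios of at least 2.57, 2.83 and 2.52 in every library. Tnc measured 47.5, 32.7, 32.0 and 29.6 CPM in members and 1.28, 4.06, 3.503 and 4.15 CPM in Unc13c-zero cells. Cacnb2, a calcium channel subunit, measured 246, 199, 83.7 and 111 CPM against 8.13, 18.0, 10.1 and 16.6 CPM. Aldh1a3, which makes retinoic acid, measured 175, 133, 116 and 95.7 CPM against 10.8, 15.7, 5.63 and 17.1 CPM. For Tnc, Cacnb2 and Aldh1a3 the members of all libraries stood above the Unc13c-zero cells of all libraries. Nrk, Tiam2, Zfpm2, Anxa10, Pcdh7, Tcim, Igfbp4 and Thsd7a completed the list, the last with the smallest ratio, 2.19. Of the 15 genes, 6 span 200 kb or more (Csgalnact1, Cacnb2, Tiam2, Zfpm2, Pcdh7 and Thsd7a), as Unc13c does. All 15 stayed over 2-fold in every library when Unc13c-zero cells were weighted by depth. With weighting by alveolar type 2 share 9 of the 15 did: Hmga2, Csgalnact1, Fbln2, Cacnb2, Tnc, Col8a1, Zfpm2, Tcim and Thsd7a.

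The 15 genes named as lower in members included an enzyme of fatty acid synthesis, secreted proteins and a homeobox factor. Scd1, a fatty acid desaturase, stood at 31.3, 46.6, 42.3 and 72.0 CPM in members and at 923, 535, 597 and 407 CPM in Unc13c-zero cells. Its ratios of -4.84, -3.49, -3.79 and -2.48 kept the same sign with weighting, from -3.30 to -1.497. Chil1, a chitinase-like secreted protein, stood at 105, 181, 133 and 203 CPM against 1410, 1486, 1007 and 1009 CPM. Irx2, a homeobox factor of lung epithelium, stood at 2.70, 4.07, 1.74 and 2.27 CPM against 37.8, 21.5, 18.5 and 12.96 CPM. The complement genes C6 and Hc, the lung chemokine gene Cxcl15, the alarmin gene Il33, and Itih4, Abca17, Sec14l3, Corin, Clip4, Pdzk1ip1, Tmprss4 and Atp6v1c2 followed, with ratios no nearer to 0 than -1.41 in any library. Of the 15 lower genes 1 spans 200 kb or more, Corin. With weighting by alveolar type 2 share 8 of the 15 stayed over 2-fold in every library, 6 of them also past the minimum of 10 CPM. With weighting by depth 12 stayed over 2-fold, 9 of them past the minimum.

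Genes of alveolar type 2 identity were lower in part. All 16 alveolar type 2 genes passed the minimum, 9 were lower and none higher, and their median log2 ratios were -2.49, -1.82, -1.35 and -1.05. Sftpc, the surfactant protein C gene, stood at 13892, 22924, 28997 and 38240 CPM in members and 77622, 84091, 75594 and 76634 CPM in Unc13c-zero cells, so the member levels did not reach those of Unc13c-zero cells in any library. In Ptprc cells before depletion Sftpc stood at 201 and 254 CPM. Lamp3, a lysosome-related protein of lamellar bodies, stood at 35.7, 56.9, 108 and 125 CPM against 626, 409, 410 and 330 CPM. Nkx2-1, the lung lineage factor, differed little, at 210, 168, 226 and 205 CPM against 294, 234, 273 and 229 CPM, with ratios from -0.48 to -0.16. Among MHC class II genes, 2 of 7 were lower (H2-Aa and H2-Ab1), with list medians of -2.29, -1.86, -1.16 and -0.94. With weighting by alveolar type 2 share, which uses the type 2 genes themselves, 1 of the 9 lower type 2 genes, Scd1, was still called and none of the MHC class II genes was. Among airway secretory genes 3 of 8 were lower, namely Scgb1a1, Cbr2 and Hp, with list medians of -1.39, -0.77, -1.36 and -1.59. In the tamoxifen library after depletion this was below the type 2 list (-1.05), and before depletion the medians were nearly equal (-1.36 and -1.35). Cbr2, a carbonyl reductase of lung epithelium, stood at 2.16, 16.9, 4.79 and 15.4 CPM against 398, 290, 164 and 149 CPM, and with weighting by alveolar type 2 share all 3 stayed over 2-fold in every library, 2 of them past the minimum.

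None of 17 alveolar type 1 genes was called in either direction, and list medians were 0.10, 0.34, 0.46 and 0.37. With 3.32% of all genes called either way, the lack of calls is not read as a result about the list. Ager, a defining type 1 gene, stood at 508, 596, 766 and 600 CPM in members and 978, 1151, 862 and 865 CPM in Unc13c-zero cells, while Hopx stood at 156, 118, 164 and 92.0 CPM against 103, 92.9, 111 and 70.2 CPM. With weighting by alveolar type 2 share the list's median over libraries turned to -0.34.

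Genes of transitional alveolar epithelium, the state seen between type 2 and type 1 cells after injury, were partly higher. Of 20 genes 7 were higher and none lower, with medians of 1.36, 0.99, 1.35 and 1.01. They were Cldn4, Fn1, Clu, Plaur, Ndrg1, Slc4a11 and Itga2. Itga2, an integrin subunit that binds collagen, measured 653, 556, 552 and 410 CPM in members and 82.1, 110, 75.01 and 94.2 CPM in Unc13c-zero cells, with no overlap and a weighted range of 1.05 to 1.85. It was the only one of the 7 still called with weighting by alveolar type 2 share. Of the 7 genes of epithelial-mesenchymal transition that passed the minimum, Vim, Fn1 and Hmga2 were higher. Vim, the intermediate filament vimentin, stood at 358, 307, 251 and 212 CPM against 60.0, 81.4, 47.1 and 77.8 CPM. Hmga2 alone of these 3 was still called with that weighting.

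**Figure D3:**
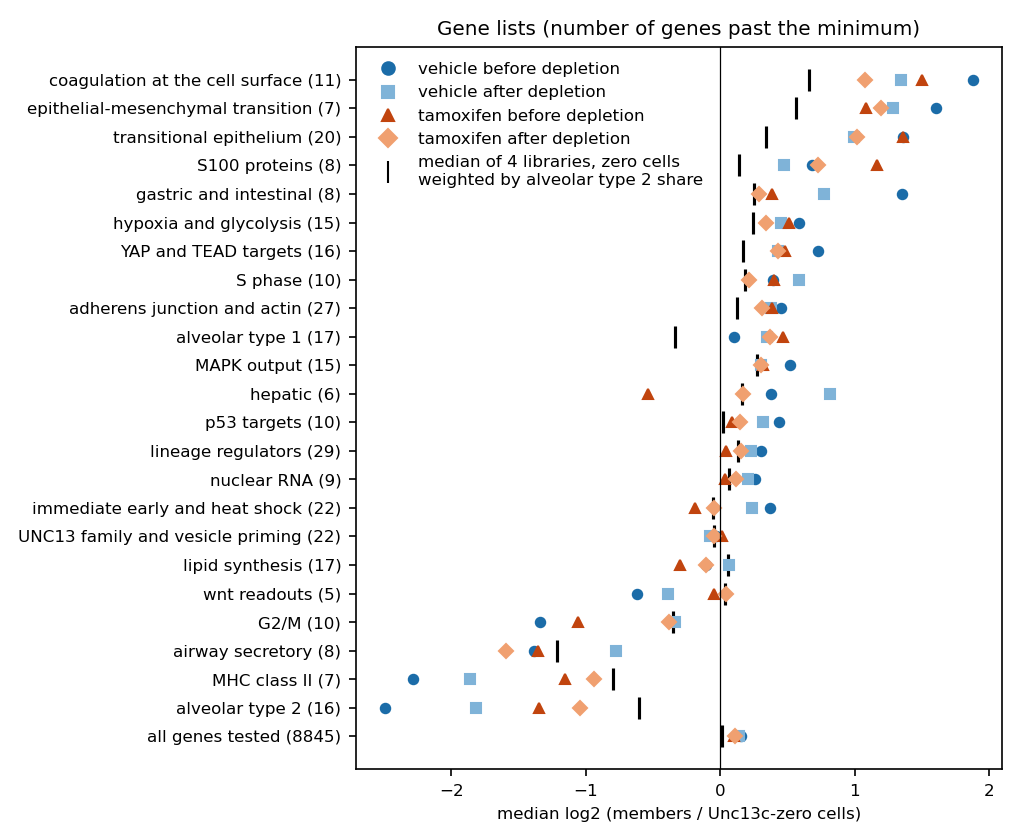
Median log2 ratio of members over Unc13c-zero cells (x axis) for each gene list with at least 5 genes past the minimum (y axis), 1 symbol per library; vertical ticks give the median of the 4 libraries when Unc13c-zero cells are weighted by alveolar type 2 share. Coagulation, epithelial-mesenchymal and transitional lists lie furthest right and the alveolar type 2 list furthest left by the unweighted median of the 4 libraries.

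Clotting and fibrinolysis genes at the cell surface were partly higher. Of 11 that passed the minimum 6 were higher and none lower, with medians of 1.88, 1.34, 1.497 and 1.08. F3 itself was 1 of the genes that named these cells. Procr, the endothelial protein C receptor, stood at 404, 490, 659 and 408 CPM against 59.3, 146, 79.0 and 109 CPM. F2r, a thrombin receptor, stood at 179, 110, 156 and 156 CPM against 48.1, 38.0, 43.5 and 49.6 CPM. Both had no overlap between the classes, as had Plaur, the urokinase receptor, at 257, 221, 183 and 165 CPM against 60.4, 86.4, 73.0 and 77.9 CPM. Plat, tissue plasminogen activator, and Serpinb2, a plasminogen activator inhibitor, were the remaining 2. The clotting factor genes F5, F7 and F10 and the inhibitor gene Tfpi did not reach the minimum. F2r alone was called with weighting by alveolar type 2 share, at 1.04 to 1.46, and the list's median over libraries was then 0.66.

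Genes of the machinery with which Munc13 proteins are known to work had medians near 0. Of 22 genes of the Munc13 family and vesicle priming 1 was higher, Rab3b, a small GTPase of secretory vesicles, at 37.3, 38.2, 27.9 and 36.3 CPM against 7.89, 12.7, 9.19 and 12.96 CPM. The list's medians were -0.03, -0.08, 0.01 and -0.04. With 2.18% of all genes called higher, the single call is not read as a result about the list. Unc13b stood at 82.6, 70.8, 63.2 and 64.3 CPM in members and 76.1, 60.5, 59.6 and 56.2 CPM in Unc13c-zero cells. Unc13d differed by ratios of 0.26, 0.28, 0.87 and 0.27, and Unc13a did not reach the minimum. Of 28 neural-type genes only 4 passed it, and Ntm, a neuronal adhesion molecule, was higher at 87.5, 69.8, 63.0 and 57.7 CPM against 23.1, 20.04, 12.7 and 13.9 CPM. Neither Rab3b (0.43 to 1.13) nor Ntm (0.84 to 1.48) was called with weighting by alveolar type 2 share.

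Among other lists, smaller parts were called, where 2.18% of all genes were called higher and 1.14% lower. At such shares a single call in a list of this length is not read as a result about the list. Of 8 S100 genes S100a6 and S100a14 were higher, and of 8 gastric and intestinal genes Ctse, an aspartic protease of the stomach, and Onecut2, a factor of liver and gut, were higher. Of 29 lineage regulators Foxa3, Runx2 and Hmga2 were higher and Irx2 was lower. Of 16 YAP and TEAD targets Ccn2, Ankrd1 and F3 were higher. S100a14 and F3 were among the genes that named these cells, and F3 and Hmga2 are also counted in other lists above. Their calls are therefore no separate result about these lists. Of 15 MAPK output genes Fosl1, an AP-1 subunit, was higher, at 59.7, 64.5, 32.2 and 38.8 CPM against 11.6, 24.7, 8.90 and 15.3 CPM. Of 17 lipid synthesis genes Fasn, Scd1 and Elovl1 were lower. With weighting by alveolar type 2 share only Hmga2 and Scd1 of the genes named in this paragraph so far were still called; Irx2 stayed over 2-fold but fell under the minimum. None of the 10 p53 target, 10 S phase or 10 G2/M genes that passed was called. With 3.32% of all genes called either way, that is not read as a result about these lists. G2/M medians were -1.34, -0.34, -1.06 and -0.38, whereas the thinned share of cells with at least 2 UMIs over the whole G2/M list was higher in members, at 35.7%, 30.9%, 33.3% and 27.3% against 24.3%, 23.9%, 20.4% and 23.2%. For the S phase list both measures were higher in members, with medians of 0.39, 0.58, 0.40 and 0.21. Its thinned shares were 82.1%, 80.2%, 75.2% and 77.2% against 63.1%, 65.5%, 64.1% and 66.5%. The G2/M measures point in opposite directions, so no order of cycling was read.

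Within the epithelial cells after depletion, Hmga2, Itga2, Cxcl15 and Lcn2 changed in 1 direction along the number of Unc13c UMIs in both libraries. The other genes followed along these classes did not in every class of both libraries. The classes are cut on Unc13c itself and are not matched on alveolar type 2 RNA. Hmga2, Itga2 and Cxcl15 had already passed the 2-fold rule between members and Unc13c-zero cells of these libraries. The share of all genes that change in 1 direction was not counted, so these trends add no support. In the vehicle library after depletion, Hmga2 measured 19.8, 124, 143, 191, 263 and 518 CPM in cells with 0, 1, 2, 3 to 4, 5 to 9 and 10 or more Unc13c UMIs in 10000. Itga2 measured 124, 283, 402, 464, 620 and 1127 CPM over the same classes. Cxcl15 ran the other way, at 2935, 1111, 933, 744, 469 and 238 CPM, as did Lcn2, at 1430, 320, 194, 147, 91.6 and 34.7 CPM. F3 measured 197, 428, 369, 557, 759 and 649 CPM there, with falls between 1 and 2 UMIs and at 10 or more. Sftpa1, a surfactant protein gene, stood at 3175 CPM with 1 UMI and 3608 CPM with 2, and Lmo7 at 1623 CPM with 5 to 9 and 1557 CPM with 10 or more. In the tamoxifen library after depletion Hmga2 measured 13.97, 54.1, 77.4, 143, 284 and 364 CPM and Cxcl15 2456, 1467, 1022, 913, 586 and 512 CPM. In the libraries before depletion these classes held as few as 7 cells, and most levels went up and down between neighbouring classes. The exception was Cxcl15 with tamoxifen, which fell in every class, from 2419 to 237 CPM. Just inside and outside the rule, cells with exactly 3 and exactly 2 unthinned Unc13c UMIs had 122 and 100 CPM of Hmga2 in the vehicle library after depletion (96 and 134 cells) and 52.3 and 80.9 CPM in the tamoxifen library after depletion (141 and 202 cells). F3 stood at 412 and 251 CPM, and at 224 and 156 CPM, in the same cells.

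**Figure D4:**
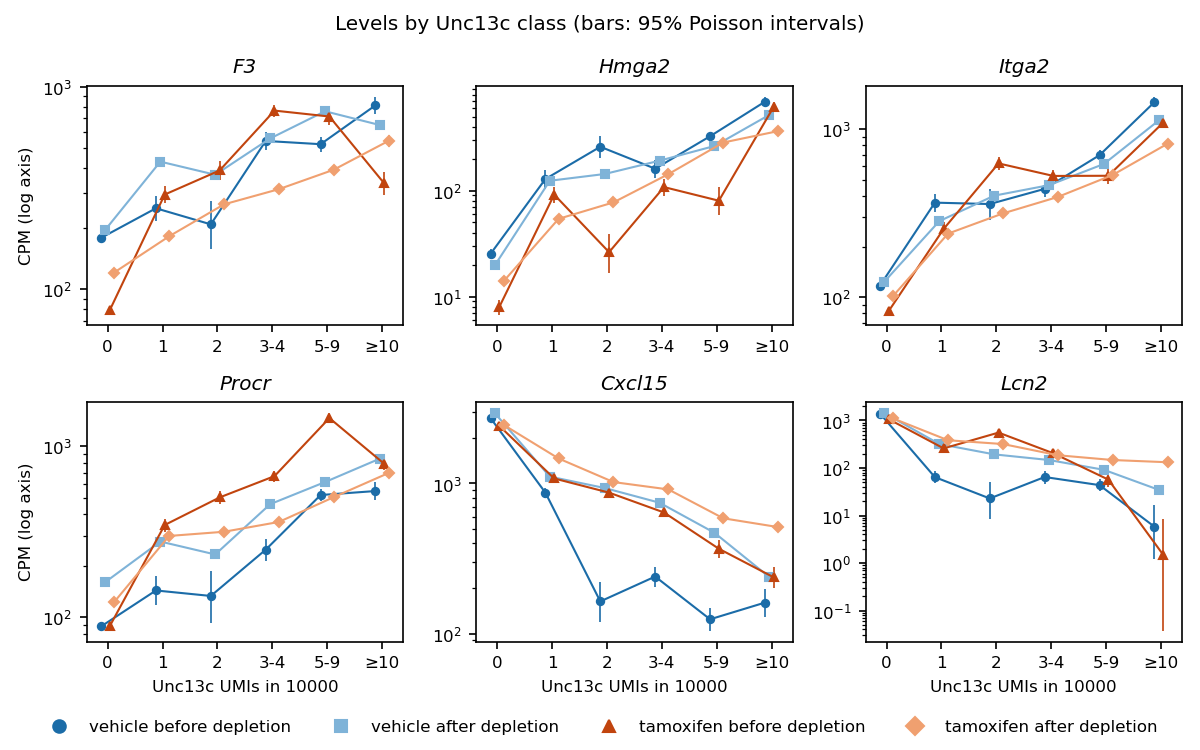
CPM (log axis) of 6 genes by Unc13c UMIs per cell after thinning to 10000 UMIs (x axis), 1 line per library, bars giving 95% Poisson intervals. In the libraries after depletion Hmga2, Itga2, Cxcl15 and Lcn2 run in 1 direction across the classes. The lines before depletion, with 7 to 36 cells in each class from 1 UMI up, cross.

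Hnf4a, the floxed gene, was checked first in the comparison of treatments. In members it stood at 114, 99.1, 98.6 and 110 CPM. It was lower in the library labelled tamoxifen before depletion, with a log2 ratio of tamoxifen over vehicle of -0.21 (95% counting interval -0.41 to -0.02), and higher after depletion, with 0.15 (0.07 to 0.24). In Unc13c-zero cells it stood at 25.5, 28.3, 81.7 and 74.1 CPM, that is, higher in the libraries labelled tamoxifen (1.64 and 1.36). The labels do not say which exons are floxed, and a 3′ count can come from a transcript that lacks an internal exon, so the level does not check the deletion. Cre was at 4.04, 4.74, 5.19 and 3.11 CPM in members and 0 and 0.0784 CPM in Ptprc cells of the libraries before depletion. Directions between treatments below are those of the labels.

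Hnf4a was higher in members than in Unc13c-zero cells of the vehicle libraries, with ratios of 2.13 and 1.75. In the tamoxifen libraries the ratios were 0.27 and 0.49. The difference between these pairs was not tested.

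Between treatments, 39 of 9118 genes (0.428%) were higher by 2-fold or more and 114 (1.25%) lower by as much in members of the libraries labelled tamoxifen, in the pairs before and after depletion alike. Both pairs come from the same suspensions and do not replicate each other. In Unc13c-zero cells 66 of 8906 genes (0.741%) were higher and 38 (0.427%) lower. Of the genes called in members, 12 of 39 were also called higher in Unc13c-zero cells (30.8% of the members' and 18.2% of the Unc13c-zero calls), and 12 of 114 were also called lower (10.5% and 31.6%). No gene was called in opposite directions.

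Among the genes named as higher with tamoxifen were a digestive enzyme and peptide hormones. Cym, chymosin, stood at 4.04 and 3.33 CPM with vehicle against 92.5 and 49.6 CPM with tamoxifen, and was also higher in Unc13c-zero cells (4.45 and 2.82). Npy, neuropeptide Y, stood at 9.69 and 3.51 CPM against 161 and 27.2 CPM, and Pyy, peptide YY, at 40.7 and 22.9 CPM against 302 and 137 CPM. Pthlh, parathyroid hormone-like hormone, rounded out the secreted factors at 104 and 76.4 CPM against 267 and 236 CPM. Adamts18, Alk, Fbn2, Bcas1, Sp5 and Fetub were the other named genes. Of the 10, 6 were also called in Unc13c-zero cells. Sp5, a Wnt-responsive factor, moved from 2.69 and 5.44 CPM to 18.4 and 17.9 CPM in members, while Unc13c-zero cells held 20.6, 19.1, 22.5 and 23.4 CPM throughout.

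Of the 114 genes lower with tamoxifen in members, 67 were under the minimum in Unc13c-zero cells and so could not be called there, and 35 were past it and not called. Without the minimum, 19 of the 114 were lower by 2-fold or more in both pairs of Unc13c-zero cells. Kcnh7, a potassium channel gene, stood at 56.5 and 53.5 CPM in members with vehicle against 2.59 and 3.49 CPM with tamoxifen. In Unc13c-zero cells it stood at 7.58 and 5.91 CPM against 1.15 and 0.694 CPM, under the minimum, with ratios of -1.997 and -2.03. Ttr, transthyretin, and Spink1, a trypsin inhibitor, products of liver and pancreas, stood at 33.4 and 50.7 CPM against 1.08 and 4.01 CPM, and at 13.2 and 49.4 CPM against 0.216 and 0.566 CPM. Gdf15, a stress-induced cytokine, stood at 410 and 479 CPM against 60.3 and 119 CPM. Cdkn1c, a cell cycle inhibitor, stood at 130 and 139 CPM against 24.0 and 29.8 CPM. Hsd17b2, Peg3, Calml4, Smim6 and Cldn23 were the others, and Smim6 alone was also called in Unc13c-zero cells, where Ttr (-1.73 and -2.20) and Cldn23 (-1.31 and -1.09) were lower without passing the minimum in both pairs. Of 11 gastric and intestinal genes 3 were lower in members (Vil1, Lgals4 and Krt20), of 7 hepatic genes 2 (Ttr and Alb) and of 7 neural-type genes 3 (Kcnh7, Gap43 and Cadm2). Of all genes 1.25% were lower. The limits of the rule use Agr2 and Phgr1 of the gastric and Rbp4 of the hepatic list. They kept out 38 and 444 cells with at least 3 Unc13c UMIs with vehicle and 4 and 53 with tamoxifen. The part of this filter in the list counts was not tested.

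Members of the tamoxifen libraries held more alveolar type 2 RNA. Of 16 alveolar type 2 genes Lamp3 and Slc34a2 were higher, where 0.428% of all genes were. They stood at 35.5 and 57.0 CPM against 107 and 123 CPM and at 232 and 244 CPM against 571 and 564 CPM. The list's medians were 0.72 before and 0.59 after depletion, where all genes had -0.07 and 0.00. In Unc13c-zero cells the ratios of Lamp3 were -0.61 and -0.31. Members with tamoxifen also held less Unc13c, with at least 10 UMIs in 49.1% and 34.8% of them against 64.0% and 46.3% with vehicle. After depletion, Cxcl15 of the type 2 list fell as Unc13c rose. The limits of the rule, Lyz1 among them, kept out 38 and 444 Unc13c-positive cells with vehicle and 4 and 53 with tamoxifen. The part of either in the type 2 difference was not tested. The list of nuclear RNA, whose level can move with RNA quality, was lower in members with tamoxifen, with medians of -0.62 and -0.42 (-0.15 and -0.18 in Unc13c-zero cells) and sums, over members with at least 10000 UMIs, of 19499 and 25569 CPM against 14446 and 14941 CPM. Its part in the treatment differences was not tested. Of the genes that marked members, 14 of the 193 were lower and 2 higher with tamoxifen, where 1.25% and 0.428% of all 9118 genes were. Among the 15 named, Nrk, Anxa10 and Tcim were lower and Col8a1 was higher. Nrk, a kinase, stood at 126 and 125 CPM against 46.3 and 38.3 CPM, and Col8a1 at 18.0 and 25.5 CPM against 72.0 and 57.9 CPM. Hmga2 (-0.71 and -0.56), F3 (-0.37 and -0.81) and Lmo7 (-0.87 and -0.99) stayed within 2-fold, and S100a14 differed in sign between the pairs (0.13 and -0.59). Fewer cells with high levels and less RNA in each cell cannot be told apart in these sums.

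**Figure D5:**
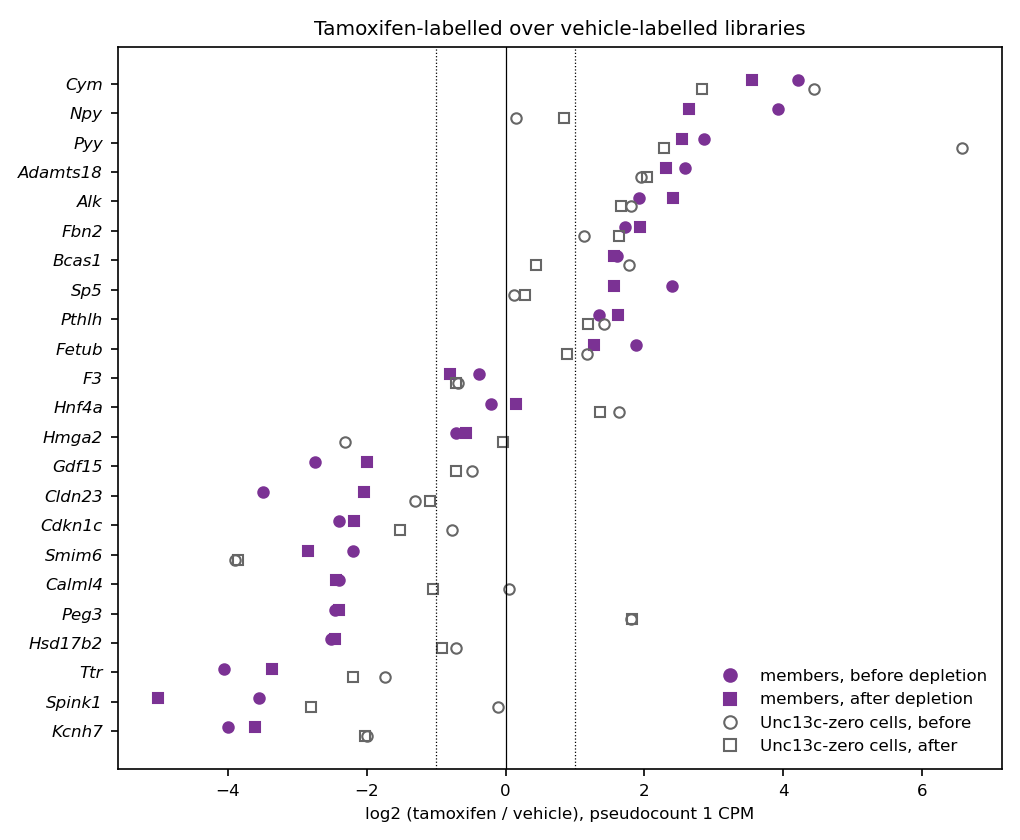
Log2 ratio of libraries labelled tamoxifen over libraries labelled vehicle (x axis) for the named genes (y axis), in members (filled) and Unc13c-zero cells (open), before (circles) and after (squares) depletion, with dotted lines at 2-fold. Peg3 lies at -2.46 and -2.40 in members and at 1.81 and 1.82 in Unc13c-zero cells.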

How the data were processed

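Single-cell RNA was counted in 4 libraries of tumour cells with the 3′ kit of 10x Genomics, per the labels' protocols. The deposited values are raw UMI counts per gene and barcode, written by Cell Ranger 7.0.1 per the file headers, while the submitters' processing notes name Cell Ranger 7.2.0 and mm10. The annotation and the use of intronic reads are not given in the sources used here. Suspensions were frozen, thawed and sorted for live single cells, per the labels' protocols. The libraries held 7658, 7284, 6558 and 7867 barcodes with 104147479, 144994771, 92644997 and 141742060 UMIs, and 7049, 6888, 6018 and 7444 barcodes passed.

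Counts were summed over members and over Unc13c-zero cells of a library and divided by the class total to give CPM. A gene was called higher or lower with at least a 2-fold ratio in the same direction in all 4 libraries, or in both treatment pairs, with 1 CPM added and at least 10 CPM in either class or in either library of a pair. The genes of the rule and the non-mouse features were left out. Treatment ratios took members of any depth. Intervals are 95%, Clopper-Pearson for shares and exact Poisson for levels, and cover counting error only, as do the limits for counts of 0, which are 3 counts of the total. Counts were thinned without replacement with a fixed seed. Doublets were kept in the comparisons and scored with Scrublet in scanpy 1.11.5, with an expected rate of 0.06; its own threshold called none in the libraries after depletion, so a score of 0.25 was used. Gene positions are those of GENCODE M21 (GRCm38). Scripts ran in Python 3.11.15 with scipy 1.17.1 and were checked on simulated data.

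Named genes are the 15 higher and 15 lower with the largest smallest ratio over the libraries, and the 10 and 10 for treatment, without genes of the rule, mitochondrial, ribosomal, immunoglobulin or histone genes, Xist, Tsix, Jpx or Y-linked genes, genes with no symbol of their own, and genes higher in Ptprc cells, plus F3, Lmo7, S100a14, Hnf4a, Cre and list examples. Examples in lists were otherwise picked after their values were seen. Members and lists were chosen with earlier results of these data known. Alternatives changed the Unc13c minimum, the limits, depth, doublets, scaling, pseudocount and minimum, the weighting of Unc13c-zero cells, and left out each library. Part of the genotype label is not reported here.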

Additional observations from a re-analysis of the deposited data

Results flagged for a closer look

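In Peg3, a paternally expressed imprinted gene, members and Unc13c-zero cells moved in opposite directions between treatments. Members held 37.7, 53.2, 6.05 and 9.29 CPM, a log2 ratio of tamoxifen over vehicle of -2.46 before and -2.40 after depletion. Unc13c-zero cells held 1.52, 2.24, 7.81 and 10.5 CPM, a ratio of 1.81 and 1.82. The levels in Unc13c-zero cells lie near or under the minimum of 10 CPM, and the difference between the classes was not tested.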

How the results depend on the processing

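The counts of genes that set members apart from Unc13c-zero cells (193 higher, 101 lower) moved by over 1.5 times under 3 alternatives. Weighting Unc13c-zero cells by depth left 65 lower genes, weighting them by alveolar type 2 share (added after the data were seen) left 31 higher and 25 lower, and leaving out 1 library gave 203 to 249 higher and 103 to 162 lower genes, the last without the tamoxifen library after depletion. Leaving out a library cannot lower these counts by construction, but that does not set the size of the rise. Without each of the other libraries 103, 105 and 110 genes were lower. The causes of the larger rise and of the other changes were not tested. The treatment counts (39 higher, 114 lower) moved to 64 higher without the limits on Rbp4, Agr2, Phgr1, Lyz1 and Retnla and to 66 higher and 210 lower without a CPM minimum, which tests more genes. Member shares followed the threshold by construction: with at least 2 UMIs they were 15.7% (vehicle after depletion) and 15.2% (tamoxifen after), with at least 5 they were 10.6% (vehicle after), 9.11% and 8.08% (tamoxifen before and after), with at least 2 per 10000 UMIs 7.22%, 10.7%, 7.27% and 8.88% in the order of the report, with at least 10 UMIs (added) 6.31%, 6.20%, 5.86% and 4.13%, and without the limits 14.2% and 20.4% in the vehicle libraries. Thinned shares were 5.04%, 5.77%, 4.07% and 3.995% at 5000 UMIs, 13.3%, 16.6%, 13.1% and 15.01% at 20000 UMIs, and 12.3%, 17.8%, 14.6% and 17.8% with at least 1 Unc13c UMI.

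Among 459 list medians 11 changed sign, in 6 of 27 lists. For lists with 1 sign over the libraries there were 2: nuclear RNA went to -0.029 with weighting by depth and long genes and alveolar type 1 to -0.34 with weighting by alveolar type 2 share. The other 9 were in lists with mixed signs (Munc13 family, lipid synthesis, immediate early and Wnt), none further from 0 than -0.22. Among marker lists, the weighting by alveolar type 2 share turned the mesothelial median from 1.19 to -0.22 and the endothelial from -0.11 to 0.25. Of 578 values for single genes against Unc13c-zero cells 34 moved beyond that spread, and of 520 treatment ratios 30 moved beyond their counting interval; none changed sign. No paired analysis was possible because each treatment and portion holds 1 library; members and Unc13c-zero cells were compared within each library. Depth limits what is seen of low genes: at 10000 UMIs a cell with few Unc13c molecules cannot be told from one without, and the libraries before depletion, with 86 and 110 members, carry wide intervals.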

Other observations

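Among listed genes that differed between treatments in members and were not described above, 3 are given here, chosen after their values were seen. Cdh2, N-cadherin, a cell adhesion molecule of mesenchymal and neural cells, stood at 35.0 and 22.4 CPM in members of the vehicle group and at 4.11 and 7.97 CPM in members of the tamoxifen group. In Unc13c-zero cells Cdh2 was at 1.18 CPM or lower in all 4 libraries. Kcnq1ot1, a long imprinted RNA that is antisense within the Kcnq1 locus, stood at 304 and 311 CPM in members of the vehicle group and at 116 and 140.0 CPM in members of the tamoxifen group, while Unc13c-zero cells held 139, 167, 126 and 130 CPM. Whether the counting used strand is not given in the sources used here, so reads of Kcnq1ot1 and Kcnq1 may be mixed. Hspb1, a small heat shock protein, stood at 219 and 270 CPM in members of the vehicle group against 89.5 and 117 CPM in members of the tamoxifen group, with log2 ratios of tamoxifen over vehicle of 0.26 and -0.49 in Unc13c-zero cells before and after depletion. The difference between members and Unc13c-zero cells was not tested for any of them.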
